A study of Mus musculus with 10 samples.

Results

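Lysosomal enzymes and membrane proteins were followed as a set of 36 genes in the lungs of mice exposed to cigarette smoke. Every array probe whose gene name, or whose current symbol through the accession given with the probe, was one of these 36 was taken. This gave 64 of 41173 probes and all 36 genes, out of 27669 genes measured. The set held 10 proteases, 10 glycosidases and sulfatases, 8 lipid enzymes and lipid-binding proteins, 7 membrane proteins, and Tfeb, a transcription factor of lysosomal genes. Where several probes measure the same gene, the probe brightest in the lung channel stands for it.

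The study set out to compare how lung gene expression differs with cigarette smoke in humans and in mice. Its mouse part, used here, compared 5 smoke-exposed mice with 5 mice kept in room air. All mice were female, of the inbred strain BALB/c and 6 to 8 weeks old at the start, and each lung was measured on an array of its own. For 8 weeks, on 5 days of each week, the smoke group had 2 daily exposures that lasted 50 minutes and used 12 cigarettes each. Controls breathed room air, and RNA came from homogenized lungs, so each value is a sum over all the cell types of the organ.

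Lysosomes are acidic compartments in which hydrolases break down proteins, glycans and lipids taken up from outside or delivered from within the cell. The hydrolases are made in the endoplasmic reticulum, most are sorted by mannose-6-phosphate receptors, and glycosylated membrane proteins, transporters and a proton pump form the limiting membrane. In the lung, macrophages are known for abundant lysosomes and clear inhaled particles and surfactant, and alveolar type 2 cells store surfactant in organelles related to lysosomes.

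Levels are log2 ratios of the red over the green channel of the same spot, so a value of 0 means equal signal in both and a difference of 1 between lungs is a doubling. The labels name a single dye, whereas the scanner files hold 2 channels, and Y chromosome and lung genes show what each contains. Green held Ddx3y, Eif2s3y and Kdm5d of the Y chromosome well above background on 10 of 10 arrays, and red on 2, 0 and 1. The lung genes Sftpc, Scgb1a1 and Ager had log2 signals 6.39, 6.72 and 4.83 higher in red. For these reasons red is taken as the female lung and green as a reference that holds male RNA. The reference has its own level of each gene, and ratios are therefore compared between lungs and never between genes. Each of the 5 slides held the smoke lung and the room air lung of the same number, with smoke in place 1 and room air in place 2 on all 5, so that exposure and place on the slide cannot be told apart, also with the slide as a block. Every direction below rests on this reading and on the scanner files' assignment to samples. The deposited table of processed values has the groups exchanged against the scanner files: each of its 286449 values matches, to within 0.0001, the same-numbered array of the opposite group.

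The arrays resembled each other in detection, with 67.8 to 76.7% of spots well above background in red in the room air lungs and 64.9 to 77.5% in the smoke lungs. All 36 lysosomal genes were well above background in red on every array, and none had a saturated spot. Room air lung 1 stood apart from the other 4 room air lungs in neutrophil and monocyte genes. Its log2 ratio of S100a8, a calcium-binding protein abundant in neutrophils, was 4.39, against 1.49 to 2.09 in the others, and that of Cd14, a co-receptor of endotoxin on monocytes, was 2.16 against -1.71 to -1.46. Calls among the 36 genes and the lists that change without this lung are given with and without it.

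With smoke, 21 of the 36 lysosomal genes (58.3%) were called higher, meaning an adjusted p under 0.05 in limma over all probes with a higher mean in the smoke lungs. Over all genes 1366 of 27669 (4.94%) were called higher and 904 (3.27%) lower. These include genes not detected in the lung. In a fit of only the probes well above background in red on all arrays of a group, 7.78% of genes were called higher. None of the 36 was called lower by limma, and 0 were lower at an unadjusted p under 0.05, where 2705 of the 27669 genes were. The difference was positive for 35 of the 36 and for 13303 of the 27669 genes. The median log2 difference of the 36 was 0.42, against -0.0042 over all genes. In 21 of the 36 every smoke lung lay above every room air lung, as it did in 1272 of 27641 genes (4.6%). Without room air lung 1, 21 of the 36 were called higher, against 6.21% of all genes, and the median was 0.40. An exact Wilcoxon test adjusted over all probes called 0 of the 36, where 25 were higher at an unadjusted p under 0.05, since its smallest p with 5 lungs per group is 0.00794. With ratios centred on the array median in place of loess, 47.9% of all probe calls were higher, against 61.7%. In that fit 14 of the 36 were called higher, against 2.01% of all genes. In a bulk sample of whole lung, fewer cells of a type and less RNA per cell cannot be told apart, and the same holds for more cells and more RNA.

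The classes were unequal in how many genes were called. Among the proteases 8 of 10 were called higher and among the glycosidases and sulfatases 8 of 10, with median log2 differences of 0.83 and 0.69. The lipid enzymes and lipid-binding proteins had 3 of 8 with a median of 0.29, the membrane proteins 2 of 7 with a median of 0.25, and Tfeb was not called. Differences between classes were not tested. With the slide as a block, 24 of the 36 were called higher, against 2067 of all genes (7.47%), and the membrane proteins went from 2 to 4 of 7. Median centring brought the lipid class from 3 to 0 and the membrane proteins from 2 to 1.

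**Figure D1:**
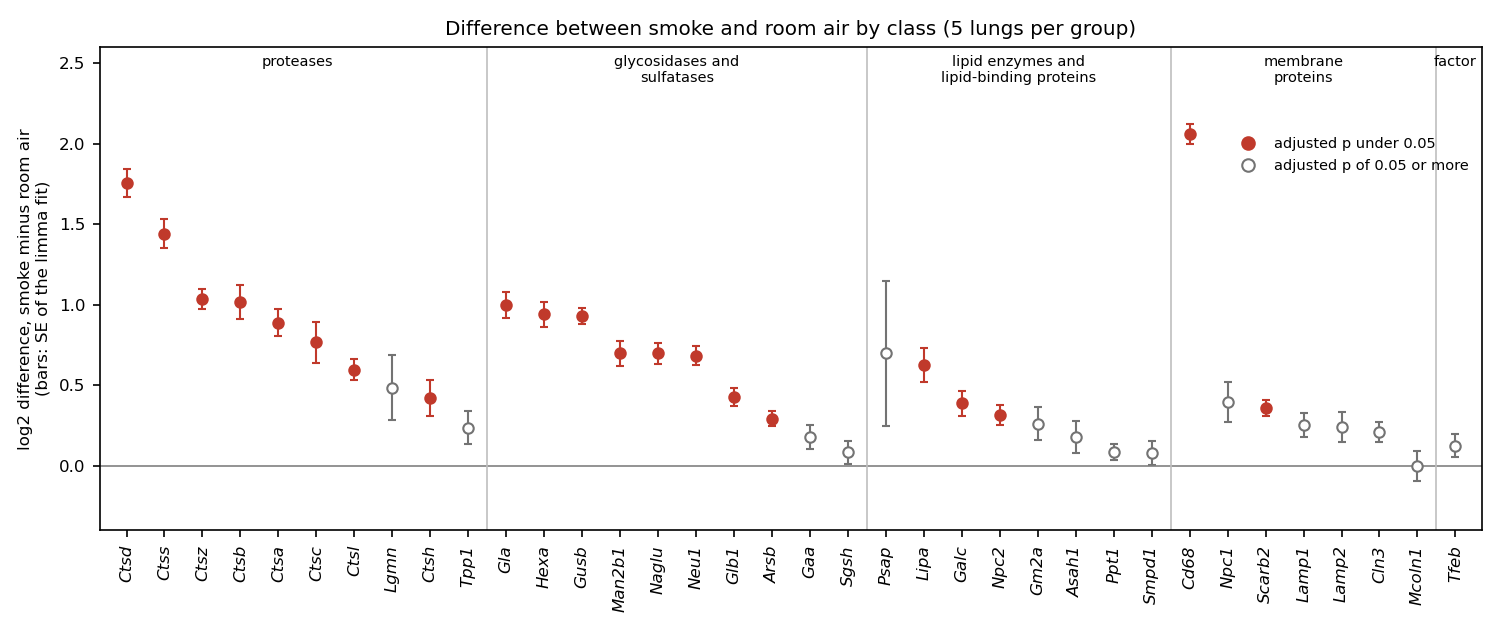
Log2 difference between the smoke and room air lungs for each of the 36 genes, grouped by class along the horizontal axis and sorted within each class; bars show the SE of the limma fit with 5 lungs per group. Filled points passed an adjusted p of 0.05, and the values run from -0.00014 for Mcoln1 to 2.06 for Cd68.

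Among the proteases, Ctsd had the widest difference. It encodes cathepsin D, the main aspartic protease of the lysosome, and is among the genes the study itself lists for mice, so its direction is not independent evidence. In the order of lungs 1 to 5, which is kept throughout, its log2 ratios were 0.35, 0.21, 0.20, 0.21 and 0.33 with room air and 1.90, 2.13, 2.04, 1.76 and 2.26 with smoke. The groups were far apart, and the lowest smoke lung, number 4, was above the highest room air lung by more than the spread of either group. Ctsd rose 3.38-fold, from 0.26 ± 0.075 to 2.02 ± 0.20 (SD, n = 5 each; log2 difference 1.76 ± 0.087 SE, adjusted p = 6.52e-07).

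Ctss encodes cathepsin S, a cysteine protease of antigen-presenting cells that trims the invariant chain. Its log2 ratios were 1.45, 1.49, 1.45, 1.27 and 1.63 with room air and 2.78, 2.79, 3.09, 2.73 and 3.11 with smoke, without overlap. Smoke lungs 3 and 5 were the highest and room air lung 4 the lowest. The rise was 2.72-fold (log2 difference 1.44 ± 0.092 SE, adjusted p = 4.95e-06).

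Ctsz and Ctsb, a carboxypeptidase and an endopeptidase with carboxypeptidase activity of the same cysteine protease family, changed by about a doubling. Ctsz had log2 ratios of -0.14, -0.31, -0.40, -0.37 and -0.35 in room air lungs and 0.80, 0.65, 0.82, 0.71 and 0.64 in smoke lungs, and rose 2.05-fold (log2 difference 1.04 ± 0.061 SE, adjusted p = 2.73e-06). For Ctsb the values were -0.020, -0.50, -0.38, -0.65 and -0.43 and 0.48, 0.67, 0.78, 0.60 and 0.59, with a rise of 2.03-fold (log2 difference 1.02 ± 0.10 SE, adjusted p = 0.000150). Neither gene's groups overlapped. Room air lung 1 was the highest of its group for both, and the difference within slide 1 was 0.94 for Ctsz, close to the other slides, but 0.50 for Ctsb, against 1.02 to 1.24 within the other 4 slides.

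Ctsa encodes cathepsin A, a serine carboxypeptidase that also protects beta-galactosidase and neuraminidase from degradation. With room air its log2 ratios were -0.84, -0.75, -0.54, -0.79 and -0.58, and with smoke 0.15, 0.19, 0.42, 0.029 and 0.16. The groups did not overlap, smoke lung 3 was the highest and smoke lung 4 the lowest of the exposed lungs, and the rise was 1.85-fold (log2 difference 0.89 ± 0.082 SE, adjusted p = 7.84e-05). All 3 of its probes were called higher.

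Ctsc encodes dipeptidyl peptidase I, which activates the serine proteases of neutrophil, mast cell and cytotoxic granules. Room air lungs had log2 ratios of 4.28, 3.61, 3.67, 3.56 and 3.63 and smoke lungs 4.57, 4.45, 4.57, 4.35 and 4.67. Room air lung 1 was well above the other 4 and only just under the lowest smoke lung, number 4. Its deviation lay in both channels, 0.26 above the other controls in red and 0.41 below them in green. Ctsc rose 1.70-fold (log2 difference 0.77 ± 0.13 SE, adjusted p = 0.00346), and without room air lung 1 the log2 difference was 0.90.

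Ctsl, another cysteine endopeptidase, had log2 ratios of -2.13, -1.86, -1.83, -2.0 and -1.99 with room air and -1.45, -1.35, -1.30, -1.45 and -1.27 with smoke. It was below the reference in all 10 lungs, the groups did not overlap, and it rose 1.51-fold (log2 difference 0.60 ± 0.066 SE, adjusted p = 0.000266). Ctsh encodes an aminopeptidase that takes part in the maturation of surfactant protein B in alveolar type 2 cells. Its log2 ratios were 5.65, 5.76, 5.97, 5.43 and 5.89 with room air and 6.24, 6.26, 6.11, 5.87 and 6.31 with smoke. The groups overlapped, since smoke lung 4 lay under room air lungs 3 and 5. Ctsh rose 1.34-fold (adjusted p = 0.0426) and was the weakest call among the 36. That call was lost when any 1 of 7 arrays was left out (room air 1, 2 or 4, or smoke 1, 2, 3 or 5), with adjusted p from 0.0669 to 0.111 in those fits and from 0.00550 to 0.312 over all its alternatives. It was also lost with a normexp offset of 0 (0.106), no background correction (0.0506), the scanner's own ratio (0.0644), median centring (0.312) and ratios scaled between arrays (0.241), and so held under 10 of 22 alternatives. In these 5 fits the log2 difference was 0.45, 0.42, 0.46, 0.33 and 0.71, against 0.42.

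Lgmn and Tpp1 were the proteases not called on their brightest probe. Lgmn encodes legumain, which cuts after asparagine and processes cathepsins. Its log2 ratios were -0.22, -0.70, 0.27, -0.26 and 0.53 with room air and 0.48, 0.041, 0.54, 0.46 and 0.54 with smoke, so that room air lung 5 was among the highest of all 10 and smoke lung 2 far under the other smoke lungs. The log2 difference was 0.49 ± 0.20 (SE, adjusted p = 0.220), while within the slides it was 0.70, 0.74, 0.27, 0.72 and 0.0091, and with the slide as a block the adjusted p was 0.0270. Tpp1, a tripeptidyl peptidase, ranged from 0.29 to 0.84 with room air and 0.52 to 0.88 with smoke, with a log2 difference of 0.24 ± 0.11 (SE, adjusted p = 0.254). Its second probe was called higher, with 0.23 (adjusted p = 0.0319) and no overlap between the groups. Without room air lung 2, its highest control, the adjusted p for Tpp1 was 0.0497, and with the mean of its 2 probes it was 0.0150, in a range of 0.0150 to 0.686 over its alternatives.

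**Figure D2:**
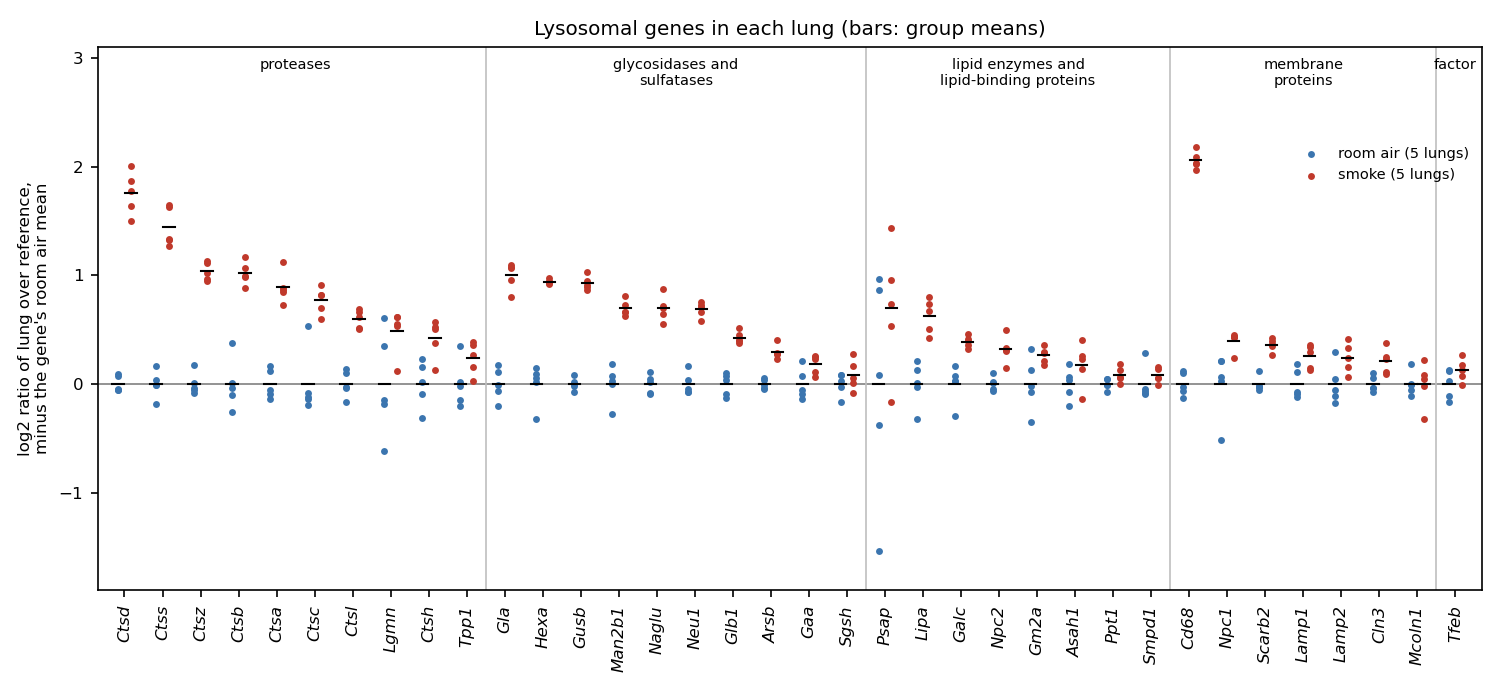
Each point is a lung, with the log2 ratio of lung over reference minus the gene's own room air mean on the vertical axis, room air in blue and smoke in red, and the 36 genes by class along the horizontal axis; short bars are group means. The smoke lungs of Cd68, Ctsd and Ctss lie far above the room air lungs, room air lung 1 is the single high blue point of Ctsc, and the room air lungs of Psap span from -0.46 to 2.04 before the mean is subtracted.

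Promoters are shown for genes called higher whose window holds the longer form of the motif that factors of the Tfeb family are known to bind, so that the matches can be read in place. The RefSeq windows (build GRCm38.p6, 250 bases before to 50 after each start) had an entry for 32 of the 36 genes, with 38 windows. Ctsb, Ctsh, Asah1 and Npc1 had none. The motifs CACGTG and TCACGTGA, the second of which contains the first, read the same on both strands. CACGTG was found in 12 of the 32 genes (37.5%), against 2187 of 27025 genes in the table (8.09%) or 7.15% of its 32851 windows. TCACGTGA was found in 5 of the 32 (15.6%), against 304 of 27025 (1.12%) or 0.974% of windows. These 5 were Ctsa, Ctsd and Gla, which were called higher, and Mcoln1 and Cln3, which were not. The shorter motif occurred in 6 of the 19 called genes with a window and in 6 of the other 13. A match describes the sequence only, and binding was not measured. The shares were not tested, and the windows of the other genes were not matched to these in base content.

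Ctsd is shown with the 250 bases before its start (chr7:142387828-142388077, minus strand), which no gene of the table covers, and TCACGTGA, in capitals, begins 99 bases before the start; a second match to the shorter motif begins 245 bases before it. Ctsa is shown with 30 bases (chr2:164833743-164833772, plus strand) before the second of its 2 listed starts, with the motif beginning 13 bases before that second start. This stretch overlaps the spans of Ctsa itself and of Neurl2, and the motif lies within that of Ctsa only. A second match to the longer motif, not shown, begins at position 5 from that second start of Ctsa, with the start base itself counted first. Gla is shown with 2 stretches of 30 bases (chrX:134601215-134601244 and chrX:134601182-134601211, minus strand), whose motifs begin 228 and 195 bases before its start and lie within the span of the neighbouring gene Hnrnph2. Exons and UTRs were not in the tables used here, so stretches inside a gene are kept short. All are written 5′ to 3′ on the strand of the gene.
Ctsd: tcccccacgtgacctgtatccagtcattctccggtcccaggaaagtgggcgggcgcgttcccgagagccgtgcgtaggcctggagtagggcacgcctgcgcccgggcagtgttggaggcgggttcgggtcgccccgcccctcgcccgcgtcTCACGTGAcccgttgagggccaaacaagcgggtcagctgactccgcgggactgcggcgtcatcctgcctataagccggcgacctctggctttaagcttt
Ctsa: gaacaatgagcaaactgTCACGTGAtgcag
Gla, farther site: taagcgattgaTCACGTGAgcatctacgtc
Gla, nearer site: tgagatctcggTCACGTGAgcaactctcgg

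Among the glycosidases, Gla had the widest difference. Gla encodes alpha-galactosidase A, which removes terminal galactose from globotriaosylceramide, and is also among the genes the study lists for mice. Its log2 ratios were -1.80, -1.63, -1.93, -1.56 and -1.74 with room air and -0.93, -0.67, -0.78, -0.64 and -0.66 with smoke. The gene was below the reference in all 10 lungs, and the lowest smoke lung, number 1, was well above the highest room air lung, number 4. Gla rose 2.00-fold (log2 difference 1.00 ± 0.081 SE, adjusted p = 3.22e-05), but only on its brighter probe, since the second probe had a log2 difference of -0.067 (adjusted p = 0.692).

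Hexa, the alpha subunit of beta-hexosaminidase, which degrades gangliosides, had log2 ratios of 0.39, 0.73, 0.77, 0.86 and 0.81 with room air and 1.65, 1.69, 1.64, 1.63 and 1.66 with smoke. The smoke lungs lay very close together, and room air lung 1 was far under the other controls, by 0.19 in red and with green 0.21 above theirs. The rise was 1.92-fold (log2 difference 0.94 ± 0.079 SE, adjusted p = 4.2e-05). Gusb, beta-glucuronidase, acts on glucuronate at the ends of glycosaminoglycans, and its log2 ratios were -1.56, -1.49, -1.48, -1.46 and -1.40 with room air and -0.61, -0.57, -0.59, -0.53 and -0.44 with smoke. Both groups were tight, and the differences within the 5 slides covered only 0.89 to 0.95. Gusb rose 1.91-fold (log2 difference 0.93 ± 0.048 SE, adjusted p = 9.22e-07), but only on its brighter probe. Its second probe had a log2 difference of 0.099 (adjusted p = 0.689), and the lowest value among its alternatives was 0.51.

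Man2b1, an alpha-mannosidase of glycoprotein breakdown, had log2 ratios of 0.58, 1.05, 0.93, 0.85 and 0.89 and 1.52, 1.67, 1.58, 1.49 and 1.52 in the room air and smoke lungs. Naglu, which cleaves N-acetylglucosamine from heparan sulfate, had -1.05, -0.90, -0.84, -1.03 and -0.93 and -0.23, -0.25, -0.074, -0.39 and -0.30. For Neu1, the lysosomal sialidase, the values were -0.93, -0.90, -0.93, -0.82 and -0.69 and -0.28, -0.15, -0.19, -0.12 and -0.10. In all 3 genes every smoke lung was above every control, and the gap exceeded the range within each group except among the room air lungs of Man2b1, where lung 1 was low. Man2b1 rose 1.62-fold (adjusted p = 0.000304), Naglu 1.62-fold (adjusted p = 8.79e-05) and Neu1 1.61-fold (adjusted p = 4.4e-05).

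Glb1 and Arsb had the smallest differences among the called genes of this class. Glb1 encodes beta-galactosidase, the partner that cathepsin A protects, and ran from -1.35 to -1.12 with room air and from -0.85 to -0.71 with smoke. The groups did not overlap, and Glb1 rose 1.35-fold (log2 difference 0.43 ± 0.057 SE, adjusted p = 0.000950), a call that ended with median centring in place of loess (adjusted p = 0.120) and with the red channel scaled to its 75th percentile (0.0748, with a log2 difference of 0.45, no smaller than before; range over its alternatives 0.000950 to 0.120). Arsb, the sulfatase of dermatan and chondroitin sulfate, ran from -0.25 to -0.15 and from 0.025 to 0.20, again without overlap. Its rise was 1.23-fold (log2 difference 0.29 ± 0.046 SE, adjusted p = 0.00246), and median centring ended it (adjusted p = 0.309; range 0.00246 to 0.309).

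Gaa and Sgsh did not pass. Gaa, the acid alpha-glucosidase of glycogen, ranged from -0.87 to -0.51 with room air and -0.66 to -0.47 with smoke, with room air lungs 2 and 4 in the smoke range, and was higher within 5 of 5 slides, by 0.010 to 0.30 (log2 difference 0.18 ± 0.073 SE, adjusted p = 0.203). Sgsh, the sulfamidase of heparan sulfate, ranged from 1.27 to 1.52 and 1.36 to 1.71, with overlapping groups (log2 difference 0.084 ± 0.074 SE, adjusted p = 0.673), and its difference was -0.026 with median centring.

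In the lipid class the called genes were Lipa, Galc and Npc2. Lipa encodes lysosomal acid lipase, which frees cholesterol and fatty acids from the esters and triglycerides that the cell takes up, and is a gene the study lists for humans. Log2 ratios of Lipa were 0.33, -0.011, 0.44, 0.52 and 0.28 with room air and 0.73, 0.98, 1.12, 1.05 and 0.82 with smoke. The groups did not overlap, and smoke lung 1 and room air lung 4 came closest. Galc removes galactose from galactosylceramide, and its values were -0.54, -0.082, -0.22, -0.17 and -0.22 and 0.16, 0.15, 0.11, 0.072 and 0.21. Here every control was under 0 and every smoke lung above it, with room air lung 1 the lowest of all. Npc2 is a soluble protein that hands cholesterol to Npc1, and its values were 1.49, 1.32, 1.40, 1.34 and 1.39 and 1.72, 1.53, 1.88, 1.70 and 1.69, with room air lung 1 and smoke lung 2 nearly meeting.

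Lipa rose 1.54-fold (log2 difference 0.63 ± 0.10 SE, adjusted p = 0.00361), Galc 1.31-fold (0.39 ± 0.077 SE, adjusted p = 0.0104) and Npc2 1.25-fold (0.32 ± 0.064 SE, adjusted p = 0.0110). Median centring ended all 3 calls, with adjusted p of 0.0883, 0.0634 and 0.484 while the differences were 0.53, 0.33 and 0.25. Over all alternatives the adjusted p ran from 0.00115 to 0.0883 for Lipa, 0.00253 to 0.0681 for Galc and 0.00494 to 0.484 for Npc2. The call of Galc also ended with the red channel at its 75th percentile (0.0681), where its log2 difference was larger, at 0.65, and that of Npc2 with the scanner's own ratio (0.0590, with a difference of 0.36) and with quantile-normalized red (0.0537, with 0.28).

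Psap was the most variable of the 36 genes between lungs of a group. It encodes prosaposin, the precursor of the saposins that present sphingolipids to their hydrolases. Its log2 ratios were 1.95, -0.46, 2.04, 1.16 and 0.70 with room air and 1.61, 0.91, 2.51, 2.04 and 1.82 with smoke, so that room air lungs 1, 3 and 4 lay within the smoke range and room air lung 2 was far below all others. The log2 difference was 0.70 ± 0.45 (SE, adjusted p = 0.500), and within the slides it was -0.34, 1.37, 0.47, 0.88 and 1.12, lower with smoke only on slide 1. Without room air lung 2 it was 0.31 (adjusted p = 0.769), and it ran from 0.31 to 0.94 when 1 lung was left out. Its 2 probes gave 0.70 and 0.58, both with large errors.

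On their brightest probes the other 4 lipid genes had small differences and overlapping groups. Gm2a, the activator protein that lifts gangliosides to beta-hexosaminidase, had a log2 difference of 0.26 ± 0.10 (SE, adjusted p = 0.195), and Asah1, acid ceramidase, 0.18 ± 0.10 (adjusted p = 0.414). Smpd1, acid sphingomyelinase, had 0.079 ± 0.075 (adjusted p = 0.707) and Ppt1, which removes palmitate from proteins, 0.085 ± 0.048 (adjusted p = 0.418), a difference that was -0.0014 with median centring. Another of the 4 probes of Ppt1, the sole probe of this gene named through its accession, had 0.41 (adjusted p = 0.0692) and was higher within 5 of 5 slides. The second probe of Gm2a had 0.36 (adjusted p = 0.0973) and was also higher within 5 of 5 slides. Smpd1 ranged from 0.84 to 1.22 with room air, with lung 1 alone at the top, and from 0.92 to 1.09 with smoke, and without that lung its difference was 0.15 (adjusted p = 0.0962). Asah1 ranged from -0.60 to -0.22 and -0.54 to 0.0065, and Ppt1 from -0.56 to -0.43 and -0.48 to -0.30. In Gm2a, which ranged from 0.70 to 1.37 with room air, the smoke lungs were closer together, at 1.23 to 1.41.

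Cd68 had the widest difference among all 36 genes. It encodes macrosialin, a heavily glycosylated relative of the Lamp proteins in late endosomes and lysosomes, and is widely used as a marker of macrophages. The log2 ratios were -1.16, -1.35, -1.31, -1.41 and -1.18 with room air and 0.74, 0.69, 0.90, 0.81 and 0.76 with smoke. All controls were below the reference and all smoke lungs above it, and within each group the values stayed close. Cd68 rose 4.16-fold, from -1.28 ± 0.11 to 0.78 ± 0.080 (SD, n = 5 each; log2 difference 2.06 ± 0.061 SE, adjusted p = 6.92e-09), and within the slides the difference was 1.90 to 2.21.

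Scarb2, which carries glucocerebrosidase to the lysosome, was the other membrane protein called. Its log2 ratios were 0.98, 0.84, 0.83, 0.80 and 0.84 with room air and 1.21, 1.13, 1.23, 1.25 and 1.28 with smoke, without overlap, and room air lung 1 stood above the other controls. Scarb2 rose 1.28-fold (log2 difference 0.36 ± 0.049 SE, adjusted p = 0.00110), on both of its probes. The call ended with median centring (adjusted p = 0.360) and with the red channel at its 75th percentile (0.179, with a log2 difference of 0.28; range over its alternatives 0.000340 to 0.360).

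Npc1, the membrane protein that exports cholesterol from the lysosome, had log2 ratios of -0.18, 0.55, 0.55, 0.39 and 0.36 with room air and 0.77, 0.57, 0.77, 0.79 and 0.77 with smoke. The groups did not overlap, but room air lung 1 was far below the other 4 and smoke lung 2 was nearly level with room air lungs 2 and 3. The log2 difference of 0.40 ± 0.12 (SE) had an adjusted p of 0.0851. Without room air lung 1 it was 0.27, smaller, with an adjusted p of 0.0252 (range 0.0252 to 0.488).

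Lamp1 and Lamp2, the main glycoproteins of the limiting membrane, the second of which is also needed for autophagosomes to mature, were not called. Lamp1 had log2 ratios of 1.21, 1.51, 1.25, 1.44 and 1.23 with room air and 1.67, 1.69, 1.48, 1.46 and 1.62 with smoke, and Lamp2 0.25, 0.72, 0.32, 0.47 and 0.37 and 0.58, 0.84, 0.49, 0.76 and 0.66. Both were higher with smoke within 5 of 5 slides, while room air lung 2, the highest control for both, overlapped the smoke lungs. Their log2 differences were 0.25 ± 0.075 and 0.24 ± 0.093 (SE), with adjusted p of 0.0695 and 0.182. With the slide as a block the adjusted p were 0.0486 and 0.0161, and without room air lung 2 they were 0.0374 and 0.0429, in ranges of 0.0374 to 0.500 and 0.0161 to 0.633. Leaving out that lung brought the membrane proteins called from 2 to 4 of 7.

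Cln3, a membrane protein lost in a juvenile form of neuronal lysosomal storage disease, ranged from 0.77 to 0.94 with room air and 0.93 to 1.22 with smoke, and only room air lung 2 reached the smoke range. Its log2 difference of 0.21 ± 0.062 (SE, adjusted p = 0.0733) passed only with the mean of its 2 probes (adjusted p = 0.0398; range 0.0398 to 0.841). Mcoln1, a calcium channel of the lysosomal membrane, was the single gene of the 36 without a positive difference. Its values were 0.14, 0.082, 0.38, 0.18 and 0.19 and 0.18, -0.13, 0.41, 0.24 and 0.28, with the groups fully mixed and smoke lung 2 the lowest, and a log2 difference of -0.00014 ± 0.094 (SE, adjusted p = 0.9997) whose sign turned under 10 of 22 alternatives.

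Tfeb, a helix-loop-helix factor that is held in the cytoplasm when nutrients are plentiful and binds the motif searched for above, had log2 ratios of -0.21, -0.021, 0.087, -0.16 and 0.077 with room air and 0.13, 0.22, 0.083, -0.049 and 0.028 with smoke. The groups overlapped and the difference was 0.13 ± 0.072 (SE, adjusted p = 0.427), higher within 3 of 5 slides. The activity of the factor, which depends on where it is in the cell, was not measured.

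**Figure D3:**
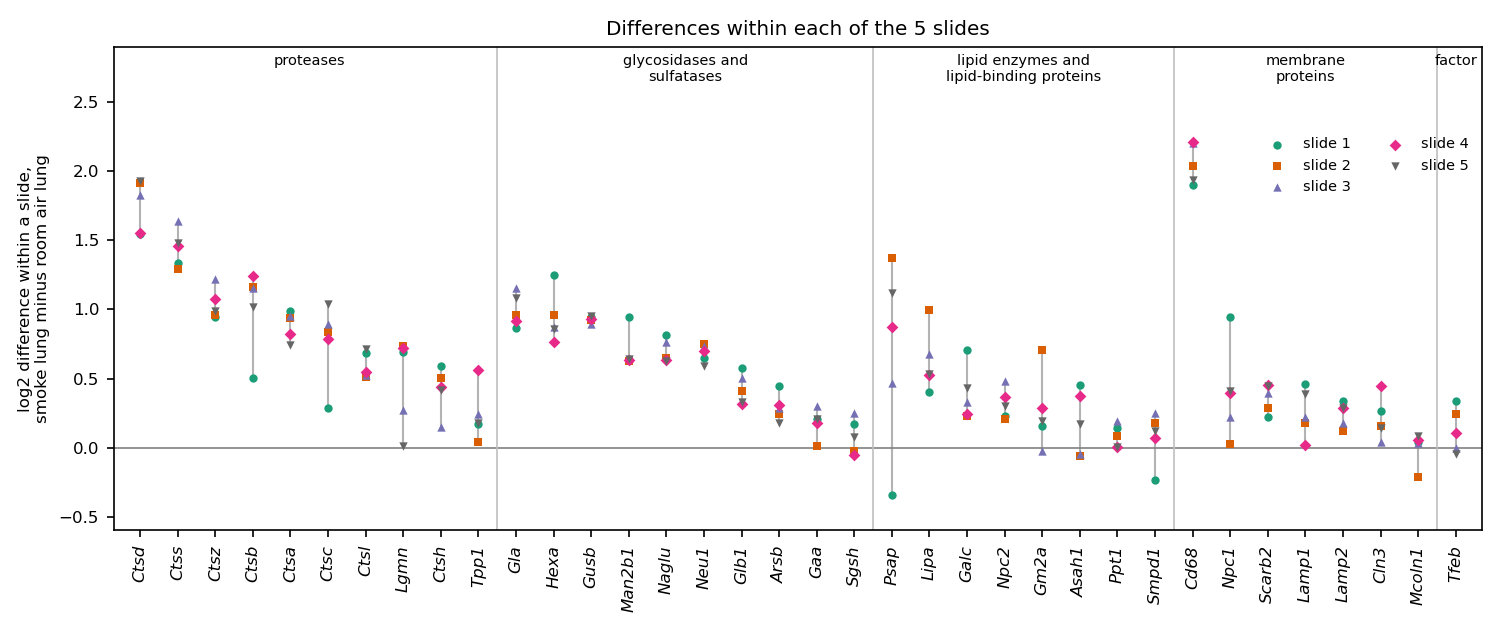
Log2 difference between the smoke lung and the room air lung on the same slide, for each of the 36 genes by class; each symbol is 1 of the 5 slides and the grey line joins the lowest and highest. The difference was positive on all 5 slides for 29 of the 36 genes, a count not taken over all genes. Slide 1 is the lowest for 10 genes, among them Ctsb, Ctsc, Psap and Smpd1, and the highest for 13, among them Hexa and Npc1.

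Within the slides, 29 of the 36 genes were higher with smoke on 5 of 5. Neither this count nor the counts by lung below were taken over all genes, so no background share stands beside them. The exceptions were Sgsh, Asah1 and Tfeb on 3 slides, and Psap, Smpd1, Gm2a and Mcoln1 on 4. The number of lysosomal genes above their own room air mean was 11, 20, 20, 13 and 20 of 36 in room air lungs 1 to 5, and 35, 33, 36, 32 and 36 in smoke lungs 1 to 5. The smoke lungs thus resembled each other, with a median deviation from the room air means of 0.44, 0.40, 0.46, 0.43 and 0.48.

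For all 21 called genes the difference in red, the lung, was larger than that in green, the reference. The difference in green was under 0.1 on the log2 scale for 32 of the 36 genes, and the other 4 were Ctsd (-0.21), Ctss (-0.19), Ctsl (-0.16) and Ctsh (0.13). In 4 genes, none of them called, green differed by more than 0.75 times as much as red: Sgsh with 0.022 in red and -0.062 in green, Smpd1 with 0.039 and -0.040, Asah1 with 0.099 and -0.079, and Mcoln1 with 0.046 in both. For Ctsd the red channel alone differed by 1.55 and for Cd68 by 2.14. Both channels were read here after the arrays were brought to a common distribution of mean intensity.

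Several probes of a gene did not always move together. Of the 22 genes with more than 1 probe, all probes had a difference of the same sign in 15. In Gla, Glb1, Naglu, Ppt1, Lamp2, Npc1 and Mcoln1 they differed in sign, although the negative probes were all within 0.08 of 0 and none of them was called. Of the 13 called genes with more than 1 probe, 6 were called on every probe (Ctsa, Ctsb, Ctsd, Ctsz, Neu1 and Scarb2), and Gla, Gusb, Glb1, Man2b1, Naglu, Arsb and Galc only on the brightest. The other probes of Glb1 had log2 differences of 0.37 and -0.071 (adjusted p = 0.152 and 0.591). Those of Galc had 0.11 and 0.098 (adjusted p = 0.514 and 0.603). The second probes of Man2b1, Naglu and Npc1 were not well above background in red on any array.

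Other lysosomal genes were read as lists beside the 36. Of 31 other hydrolases 15 were called higher and 0 lower by limma, where 1 was lower at an unadjusted p under 0.05, with a median log2 difference of 0.29. With the slide as a block, 18 were called higher and 1 lower (Hyal1, named after its value was seen, adjusted p = 0.0324). The 15 became 14 without room air lung 1 (Manba lost, adjusted p = 0.0683, also named so), 9 with the scanner's own ratio and 5 with median centring. The log2 difference of Manba was 0.26 without that lung, against 0.32 with it. Ctsk, a collagen-degrading cathepsin of osteoclasts and macrophages, had log2 ratios of 2.21, 1.85, 2.30, 1.52 and 2.20 with room air and 4.92, 4.83, 4.90, 4.56 and 4.86 with smoke, and rose 6.95-fold (adjusted p = 6.64e-07), more than any protease among the 36. In red alone the log2 difference of Ctsk was 3.38, and the reference in green differed by 0.584. Acp5, an acid phosphatase that the study lists on these samples, rose 2.29-fold (adjusted p = 0.000526). Plbd1 and Galns rose 1.54- and 1.45-fold.

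Of 26 other lysosomal membrane proteins 8 were called higher and 1 lower, with a median of 0.14, and median centring left 4 higher, while the block gave 11 higher and 1 lower. Gpnmb, a glycoprotein of macrophages and melanocytes, had log2 ratios of -3.44, -3.43, -3.71, -3.23 and -3.51 with room air and -0.28, -0.21, -0.053, -0.13 and 0.026 with smoke, a rise of 10.1-fold (adjusted p = 2.75e-09). Laptm5, the metal transporter Slc11a1, Slc15a3, Slc36a1 and Slc11a2 rose 1.97-, 1.74-, 1.64-, 1.35- and 1.27-fold. The gene called lower, named after its value was seen, was the channel Tpcn1 (log2 difference -0.30, adjusted p = 0.0162).

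Of 24 subunits of the proton pump that acidifies the lysosome, 9 were called higher and 0 lower by limma (0 also at an unadjusted p under 0.05), with a median of 0.20, and median centring left 2, while the block gave 11. Atp6v0d2, a subunit of osteoclasts and macrophages that the study lists on these samples, rose 2.57-fold (adjusted p = 0.000148), and Tcirg1, Atp6v0c, Atp6v1c1, Atp6v0d1 and Atp6v1b2 rose 1.31- to 1.53-fold. Leaving out room air lung 1 gave 8 called subunits. The adjusted p of Atp6v1c1 was then 0.0540, with a log2 difference of 0.45, against 0.49 with that lung. The sorting, control and autophagy lists had few calls. In mannose-6-phosphate sorting 1 of 16 was called higher (Ap1s1, 1.24-fold), with 3 when the slide was a block, 3 when room air lung 1 was left out and 2 when smoke lung 2 was. Among the relatives of Tfeb and their lysosomal control it was 2 of 19 (Tfec, 2.09-fold, adjusted p = 0.00653, and Rragc, 1.21-fold), with 5 with the block, 3 without room air lung 1 (Fnip2 gained, named after its value was seen, adjusted p = 0.00244) and 1 without smoke lung 5. Among autophagy genes it was 2 of 25 (Atg5, 1.23-fold, and Atg13, 1.16-fold) and 5 with the block, but 1 without room air lung 1 (Atg5 lost, adjusted p = 0.0726), 2 or 4 and 0 without room air lung 3 or smoke lung 1, 2, 3 or 5. The log2 difference of Atg5 was 0.29 without room air lung 1, against 0.30 with it. Shares of 6.25, 10.5 and 8% stand beside the 4.94% of all genes, and no gene of these 3 lists was called lower by limma, where 1, 0 and 0 were lower at an unadjusted p under 0.05. With only probes well above background in red on all arrays of a group, 7.78% of genes were called higher, and 2 sorting genes.

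**Figure D4:**
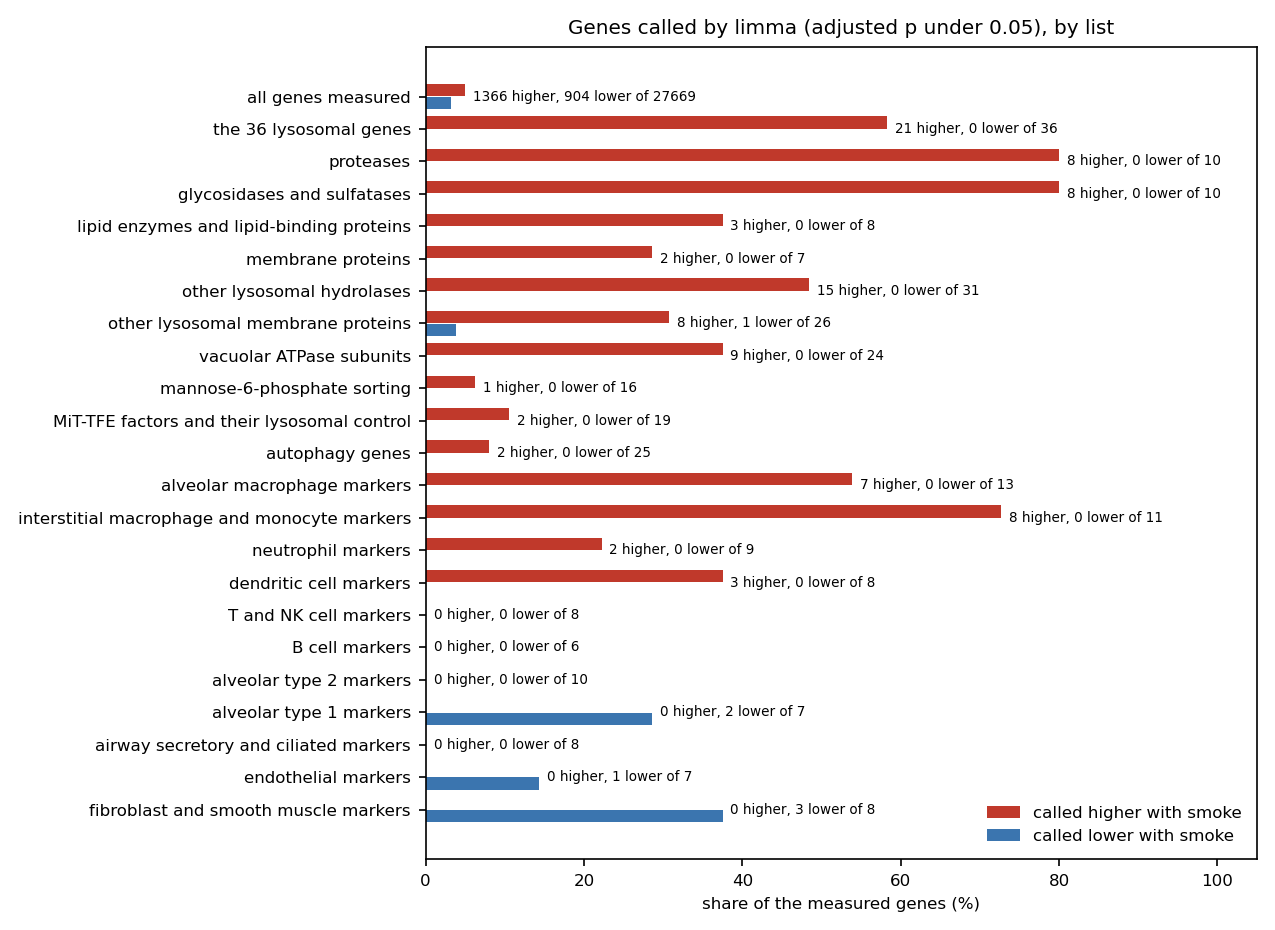
Share of the measured genes of each list that limma called higher (red) or lower (blue) with smoke, with the counts beside each bar. The proteases and the glycosidases and sulfatases reach 80%, and 58.3% of the 36 genes were called higher, against 4.94% of all genes.

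Many markers of macrophages were also called higher, and their part in the result was not tested. Of 13 alveolar macrophage markers measured, 7 were called higher and 0 lower (0 also at an unadjusted p under 0.05). Their summed red signal, relative to the 75th percentile of each array, was 132, 125, 135, 123 and 140 in the room air lungs and 316, 315, 322, 276 and 352 in the smoke lungs, with Chil3 the brightest. Marco rose 6.05-fold, Chil3 4.33-fold, Itgax 2.53-fold, Plet1 2.42-fold and Mrc1 2.20-fold, while Siglecf, a defining receptor of these cells, had a log2 difference of 0.25 (adjusted p = 0.312), and of 0.16 without room air lung 1 (adjusted p = 0.479). For Marco, Chil3, Itgax, Plet1 and Mrc1 the log2 differences in red alone were 3.51, 2.01, 2.02, 1.58 and 1.20. The reference channel differed too, by 0.92, -0.10, 0.68, 0.31 and 0.060 in green. Fabp4, Car4 and Ear1, named after their values were seen, had log2 differences of -0.25, -0.094 and 0.012 (adjusted p = 0.781, 0.832 and 0.984). Without room air lung 1 these were -0.024, -0.023 and -0.074 (adjusted p = 0.984, 0.968 and 0.874). Fabp5 was not well above background in red on 2 of the 5 room air arrays, and all other markers of this list were above it on every array.

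Of 11 markers of interstitial macrophages and monocytes 8 were called higher and 0 lower (0 also at an unadjusted p under 0.05). Their summed signal was 52.9, 17.9, 15.7, 15.4 and 18.1 with room air and 56.5, 64.3, 49.8, 52.9 and 62.3 with smoke, with Cd14 the brightest and room air lung 1 as high as the smoke lungs. Cd14, named after its value was seen, had a log2 difference of 1.55 (adjusted p = 0.220), and of 2.29 without room air lung 1 (adjusted p = 3.05e-07), when all 11 markers were called higher. Ms4a7 and Adgre1 rose 5.04- and 2.62-fold, and the complement genes C1qa, C1qb and C1qc 1.72-, 2.50- and 1.48-fold. For these complement genes the reference channel differed as well. Their log2 differences were 1.814, 1.666 and 1.798 in red and 1.031, 0.344 and 1.235 in green. The log2 ratios of Ms4a7, -0.52, -0.57, -0.55, -0.45 and -0.40 with room air and 1.86, 1.82, 1.91, 1.72 and 1.88 with smoke, separated the groups as Cd68 did. All markers of this list were well above background in red on every array.

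Among 9 neutrophil markers 2 were called higher (Mmp8, 2.24-fold, and Camp, 1.52-fold) and 0 lower (0 also at an unadjusted p under 0.05), Camp being named after its value was seen, while S100a8 and S100a9 differed by 0.47 and 0.16 log2 units (adjusted p = 0.718 and 0.852). Without room air lung 1 these were 0.97 and 0.33 (adjusted p = 0.00458 and 0.495), every smoke lung was above every other control for S100a8, and 4 of the 9 markers were called higher, with Ltf (adjusted p = 0.0137), named after its value was seen, the fourth; with the slide as a block 3 were called, Ltf the third. Their summed signal was 193, 39.9, 30.4, 34.6 and 47.6 with room air and 94.0, 72.7, 54.4, 61.0 and 68.9 with smoke, S100a9 was the brightest, and room air lung 1 exceeded every other lung. Ngp was well above background in red on 1 of 10 arrays and Camp on 9. Of 8 dendritic cell markers 3 were called higher, Itgae, Ccr7 and Flt3, and 0 lower by limma, where 1 was lower at an unadjusted p under 0.05, and the median difference was 0.051. Clec10a, Zbtb46 and Clec9a had negative differences of -0.38, -0.22 and -0.079, and Zbtb46 was called lower with the slide as a block (adjusted p = 0.0420). Of these, all but Flt3 were named after their values were seen. Their summed signal was 3.53, 3.23, 3.35, 4.13 and 3.39 and 4.01, 3.84, 3.66, 4.41 and 4.22, with Clec10a the brightest, and Cd209a was above background on 6 of 10 arrays.

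Of 54 markers of lymphocytes, epithelium, endothelium and fibroblasts limma called 0 higher and 6 lower (11.1%), where 4.94% of all genes were called higher and 3.27% lower. None of 8 T and NK cell, 6 B cell, 10 alveolar type 2 or 8 airway markers was called in either direction, where 1, 0, 0 and 1 were higher and 1, 0, 0 and 0 lower at an unadjusted p under 0.05. With the slide as a block, 2 T and NK cell markers (Cd3g and Cd3d), 2 alveolar type 2 markers (Sftpd and Napsa) and 1 airway marker (Scgb3a1) were called higher, with adjusted p of 0.00539, 0.0327, 0.0441, 0.0494 and 0.0383; of these Sftpd and Napsa were named after their values were seen. Without room air lung 1, 1 T and NK cell marker was called lower (Ncr1, adjusted p = 0.0324, also named so). Sftpc, Sftpa1 and Sftpb of alveolar type 2 cells had log2 differences of -0.13, 0.087 and 0.037 (adjusted p = 0.838, 0.895 and 0.917). The red spot of Sftpc was saturated on 1 of 10 arrays. Structural cells had markers called lower, 2 of 7 for alveolar type 1 cells (Cav1 and Emp2), 1 of 7 for endothelium (Pecam1) and 3 of 8 for fibroblasts and smooth muscle (Pdgfra, Dcn and Acta2), of which all but Pecam1 were named after their values were seen. The positive differences in these lists were those of Col1a1 (0.25), Col1a2 (0.069), Pdpn (0.077) and Ager (0.028), none of them called. With the block the counts called lower became 3, 2 and 4, with Aqp5, Tek and Myh11 added (adjusted p = 0.0266, 0.0159 and 0.0339), again named after their values were seen. Over all genes 1741 of 27669 were called lower with the block. Without the block the 6 differences ran from -0.64 for Cav1 to -0.39 for Emp2.

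**Figure D5:**
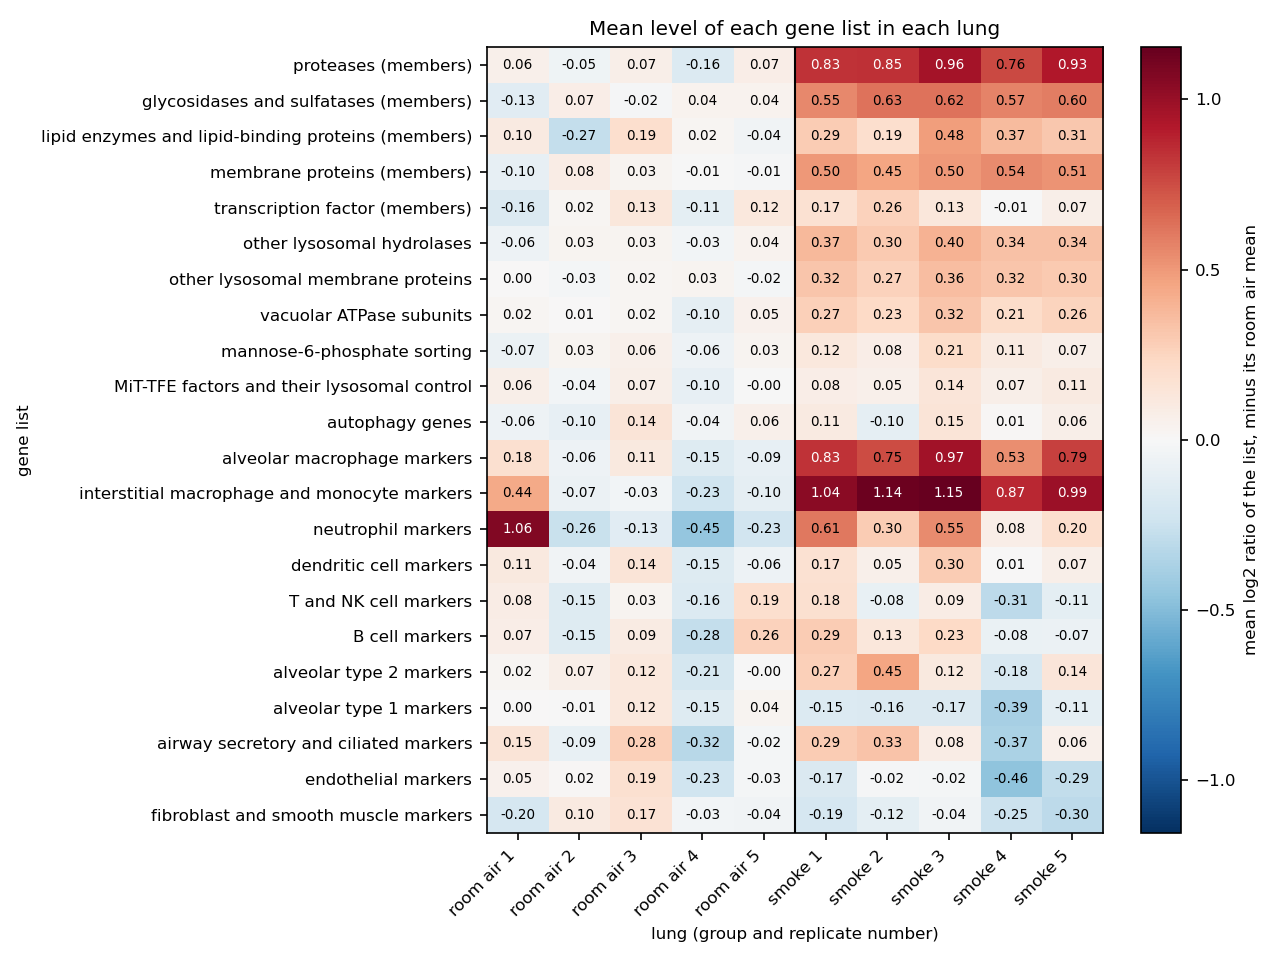
Mean log2 ratio of each gene list (vertical axis) in each of the 10 lungs (horizontal axis), minus the list's own room air mean, printed in each cell and shown by colour from blue (lower) to red (higher). The classes of proteases, glycosidases and sulfatases, and membrane proteins are high in all 5 smoke lungs, as are both macrophage lists. The neutrophil list is highest in room air lung 1.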

How the data were processed

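Lung RNA of 5 smoke-exposed and 5 room air mice was measured on 10 Agilent arrays, grouped by the sample labels and compared with the scanner files' assignment. Per the file headers, Agilent Feature Extraction 9.5.3.1 (9.1 per the labels) gave the intensity of each spot and of its local background in red and green. The same deposited files hold flags, which are neither intensity nor log2 and count as other values, for spots well above background, saturated or outlying. A table of log2 values, deposited by the authors and holding the mean of both channels, was used only as an alternative.

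Mean signals were corrected with normexp of limma 3.58.1 (R 4.3.3, offset 50) against the median local background, and ratios of red over green were normalized by loess within each array. Control spots were left out, outlying spots removed (83 to 141 on the room air arrays, 121 to 144 on the smoke arrays), and spots of a probe averaged, with no filter on dim probes. The groups were compared by lmFit and eBayes of limma, two-sided, with Benjamini-Hochberg adjustment over 41173 probes and a threshold of 0.05. Precision is limited by the number of arrays, 5 in each group. On simulated data 198 of 200 changed probes were recovered and 13 unchanged probes were called. This checks the calculation only and does not measure how many differences between these lungs were missed.

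The members and lists were chosen with earlier results of these data known. All members are named; other lysosomal lists name up to 6 called genes with the largest differences, and marker lists their first 3 genes and, up to 6 in all, those called with a fold change over 2. Some genes under this rule are not reported here, but count in the lists. Of the listed genes 6 matched no probe: Lamtor4, Atg9a, Ear2, Ly6c2, Ly6g and Trac. Arrays of the same number share a slide, and their deviations from the group means correlated over all probes at 0.157, 0.461, 0.46, 0.55 and 0.415 for numbers 1 to 5; the highest between different numbers was 0.205, for numbers 1 and 3. Alternatives changed the background correction, normalization, channel, probe filter, choice of probe, test, threshold and block, and left out each array in turn. Promoter windows came from RefSeq, build GRCm38.p6.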

Additional observations from a re-analysis of the deposited data

Results flagged for a closer look

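In 7 of the 72 groups of 5 lungs (36 genes, 2 groups each), 1 lung lay further from the others than a Dixon test at 95% allows, where chance flags about 1 in 20 groups. Room air lung 1 accounts for 5 of these. Its log2 ratio of Ctsc was 4.281, above the other controls at 3.56 to 3.671. For Smpd1 it was 1.223 (others 0.8384 to 0.8905) and for Scarb2 0.9816 (others 0.804 to 0.8444). It was low for Hexa, at 0.3927 (others 0.7276 to 0.8636), and for Npc1, at -0.1807 (others 0.3554 to 0.5481). Smoke lung 2 was low for Lgmn, at 0.04082 (others 0.4558 to 0.5398), and for Npc1, at 0.5711 (others 0.7662 to 0.7854). In red and green, the difference of that lung from the mean of the others was 0.256 and -0.407 for Ctsc, 0.37 and 0.0103 for Smpd1, 0.167 and 0.0154 for Scarb2, -0.186 and 0.214 for Hexa, and -0.516 and 0.126 for Npc1 in room air lung 1. In smoke lung 2 it was -0.496 and -0.035 for Lgmn and -0.0414 and 0.159 for Npc1, so that Ctsc, Hexa and Npc1 in smoke lung 2 deviate more in the reference than in the lung channel. The causes were not tested.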

How the results depend on the processing

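Of the 21 genes called higher, 14 kept the call under all 22 alternatives that refit each gene with limma, which leave out the Wilcoxon test, the fold change limit and the deposited table (Ctsa, Ctsb, Ctsc, Ctsd, Ctsl, Ctss, Ctsz, Hexa, Gla, Gusb, Man2b1, Neu1, Naglu and Cd68). The other 7 lost it under at least 1, and 6 of the 15 not called passed under at least 1. Fitting the slide as a replicate block gave 5019 calls over all probes against 2906, 4 membrane proteins, 3 sorting genes, 5 relatives of Tfeb and 5 autophagy genes; it added Lgmn, Lamp1 and Lamp2 and changed no other member's call.

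The 2906 became 1660 with a normexp offset of 0, 1892 with the scanner ratio, 1434 with median centring, 1759 with red at its 75th percentile, 0 with the Wilcoxon test, 790 with a fold change over 1.5 and 16 with the deposited table. The Wilcoxon test and the deposited table gave 0 for the 36 genes and for every class and list; in that table, whose groups are exchanged, the median log2 difference of the 36 was -0.21. The median was 0.54 with red at its 75th percentile, 0.33 with median centring and 0.35 with the mean of probes. Leaving out 1 lung gave 2102 to 3660 calls over all probes, 20 to 23 of the 36 genes, a median of 0.3971 to 0.4653, 7 to 8 proteases, 8 to 8 glycosidases and sulfatases, 3 to 3 lipid genes and 2 to 4 membrane proteins. For the other lists it gave 10 to 14 hydrolases, 6 to 8 membrane proteins, 7 to 9 pump subunits, 1 to 3 sorting genes, 1 to 3 relatives of Tfeb and 0 to 2 autophagy genes.

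Median centring left 0 lipid genes, 1 membrane protein, 5 other hydrolases, 4 other membrane proteins, 2 pump subunits, 0 sorting genes, 1 relative of Tfeb and 0 autophagy genes. A fold change over 1.5 left 1, 1, 5, 4, 2, 0, 1 and 0 in that order. The scanner ratio left 9 other hydrolases, 5 other membrane proteins, 0 sorting genes, 1 relative of Tfeb and 0 autophagy genes. Red at its 75th percentile left 1 membrane protein, 5 other membrane proteins, 3 pump subunits, 0 sorting genes, 1 relative of Tfeb and 0 autophagy genes, and quantile-normalized red 5 other membrane proteins, 5 pump subunits and 0 autophagy genes. Either filter on dim probes gave 2 sorting genes, an offset of 0 gave 1 relative of Tfeb and 0 autophagy genes, the mean of probes 1 relative of Tfeb, and scaled ratios 1 autophagy gene.

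With median centring Sgsh was -0.026 and Ppt1 -0.0014. Mcoln1, at -0.00014, was 0.046 without room air lung 3, 0.0046 and 0.081 without smoke lungs 1 and 2, 0.012 with an offset of 0, 0.00036 without background correction, 0.0043 with the scanner ratio, 0.0070 with scaled ratios, 0.058 and 0.070 with red at its 75th percentile and quantile-normalized, and 0.048 with the mean of probes. Its range without 1 lung was -0.054 to 0.081, that of Sgsh 0.037 to 0.13 and that of Ppt1 0.062 to 0.11. The cause was not tested. With 5 lungs per group, small differences such as those of Tfeb, Sgsh and Mcoln1 cannot be told from none, and signal over background limits the dim second probes and list genes near background such as Ngp and Cd209a. Protein, enzyme activity and the cell types that hold the RNA were not measured.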
